A study of Gallus gallus with 8 samples.

Results

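The hypothalamus of 7-week-old chickens was compared between chickens of a fat line, FL, and of a lean line, LL, on spotted two-colour cDNA arrays. The comparison takes the 4 arrays of the FL sample of week 7 and the 4 arrays of the LL sample of week 7, which are 8 of the 32 arrays of a series that also holds both lines at weeks 1, 3 and 5. The members were chosen by the line and age in the sample labels. On each array the RNA of the sample carried Cy3, and a pool of equal parts of every RNA of the series carried Cy5, so each value is a log2 ratio of the sample to that pool. The series design states 4 biological replicates for each line and age; neither whether an array stands for 1 bird nor the sex of the birds is stated in the labels. Both lines were raised on the same standard broiler protocol. FL and LL are lines bred apart for high and low abdominal fat.

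The hypothalamus reads signals of energy stores and sets feeding and metabolic rate. Neurons of its arcuate region that make POMC products curb appetite, and neurons that make neuropeptide Y and agouti-related peptide drive it. Other hypothalamic neurons release peptides that steer the pituitary gland below, and the tissue also holds myelin-forming oligodendrocytes, astrocytes, the tanycytes that line the ventricle, and blood vessels. In whole tissue, fewer cells of a type and less RNA per cell cannot be told apart.

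The arrays carried 17708 clones, of which 7504 were tested, 4524 of them with a gene name, for 3583 genes. A clone counts as above background on an array when its Cy3 signal exceeds the 95th percentile of the empty spots. Between 3194 and 6854 clones were above background on an FL array of week 7, and between 3943 and 8578 on an LL array. Median signal over local background was 4.48 ± 1.27 in FL and 4.48 ± 1.30 in LL (SD, n = 4 each, exact permutation p = 1, two-sided, 70 splits, smallest possible p 0.0286). Of 20 genes that mark the hypothalamus, 3 were on the arrays under their names. ISL1, a transcription factor of developing arcuate neurons, was above background on all 4 FL and all 4 LL arrays, POMC on 3 of each, and NPY on none. Of 13 anterior pituitary genes on the arrays, 9 were above background on at least 3 FL arrays and 10 on at least 3 LL arrays, among them the hormones GH and PRL on all 8. Their summed Cy3 level overlapped between the lines, from 108758 to 138017 in FL and from 114542 to 139960 in LL. Their part in any line difference was not tested.

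One FL array of week 7 stood apart, and it touches most values below. The log2 ratios of FL array 3 correlated with those of the other FL arrays at 0.05, -0.12 and -0.28 across clones. FL arrays 1, 2 and 4 correlated with each other at 0.45 to 0.56. Array 3 was the least like LL array 2 (-0.35), and the most like an FL array of week 1, replicate 4 (0.68); since the labels state the dyes, its direction was kept. It was kept under its label as an FL array of week 7, and whether the label holds was not tested, so each value that rests on it carries that doubt. It was the lowest or the highest of the 4 FL arrays in 1061 and 1308 of 3279 genes. Its signal over background was 3.43, the lowest of the FL arrays, while its 6461 clones above background lay within the FL range. Without it, FL arrays correlated with LL arrays at 0.47 on average (0.19 to 0.69), with LL arrays among themselves at 0.33 (0.15 to 0.53) and FL arrays among themselves at 0.51. LL arrays were thus less like each other, on average, than FL arrays 1, 2 and 4 were like LL arrays. These correlations share the Cy5 pool and the clones, and are given as a description.

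**Figure D1:**
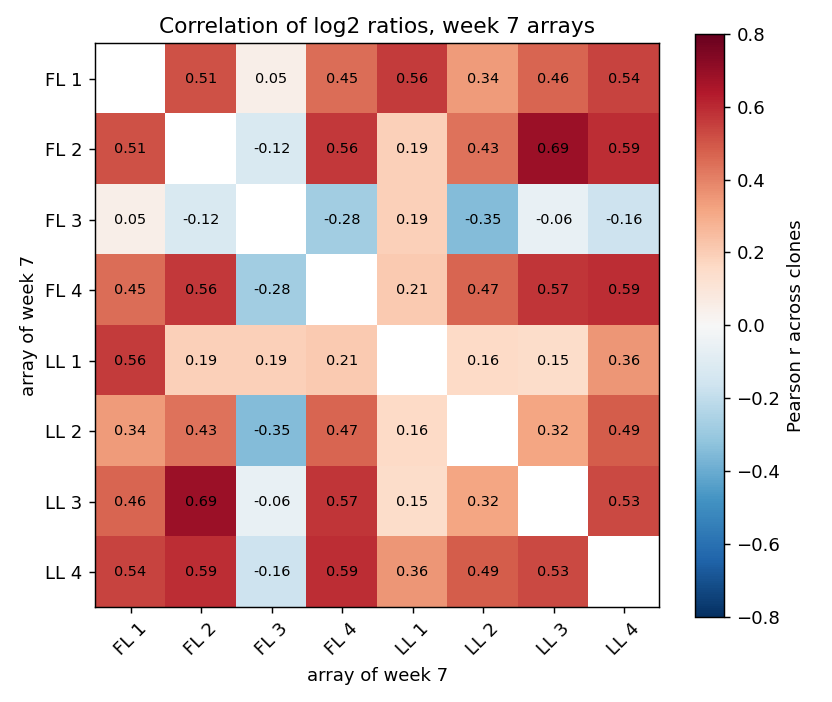
Pearson correlation across clones of the log2 ratios of the 8 arrays of week 7, FL arrays 1 to 4 before LL arrays 1 to 4 on both axes. FL array 3 correlates at -0.35 to 0.19 with the other 7 arrays, while FL arrays 1, 2 and 4 correlate with LL arrays at 0.19 to 0.69.

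No clone passed as different between the lines at week 7, which does not show that the lines were alike. In a limma model of all 32 arrays, 0 of 7504 clones passed an adjusted p of 0.05 (0%), and the smallest adjusted p was 0.9997. At an unadjusted p under 0.05 stood 246 clones (3.28%), 126 higher in FL (1.68%) and 120 lower (1.6%), against 375.2 if p-values were spread evenly. By gene, with the brightest clone standing for each, 100 of 3583 were under 0.05 (2.79%), 55 higher in FL (1.54%) and 45 lower (1.26%). The differences were small: their SD over clones was 0.18 on the log2 scale, and their median standard error was 0.14. Without FL array 3, 109 clones (1.46%) and 47 of 3567 genes (1.32%) were under 0.05. The median SD between arrays within a line was 0.18 in FL, 0.11 in FL without array 3, and 0.17 in LL.

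Separation of the arrays gave a similar picture. Of 6458 clones with all 8 values, 82 had FL and LL arrays that did not overlap (1.27%), with every FL array above every LL array in 40 (0.619%) and below in 42 (0.65%). At week 1 the same count was 751 of 6504 (11.5%). By gene, 38 of 3123 did not overlap (1.22%), 19 each way (0.608%), and without FL array 3 there were 141 of 6529 clones (2.16%), where 3 arrays against 4 separate more easily by construction. Differences above 0.5 were found for 68 clones (0.906%) and below -0.5 for 92 (1.23%). Beyond 1 log2 unit, 1 clone was higher in FL (0.0133%) and 4 were lower (0.0533%), and in 4 of these 5, 1 array held the value. TMEM115, a Golgi membrane protein, had -0.11, 8.13 and 0.12 in FL arrays 2, 3 and 4, against 0.26, -0.28, -0.06 and -0.27 in the LL arrays. MIA3, which helps load collagen into transport vesicles, had -0.19, 0.14 and 0.38 in FL arrays 2, 3 and 4, against 3.52, 0.05 and -0.03 in LL arrays 2, 3 and 4. For TMEM115 the outlying value was FL array 3, for MIA3 LL array 2, and the other arrays of both lines lay close to each other. TMEM115 and MIA3 were chosen after their values were seen, and the other 3 of these clones have no gene name.

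**Figure D2:**
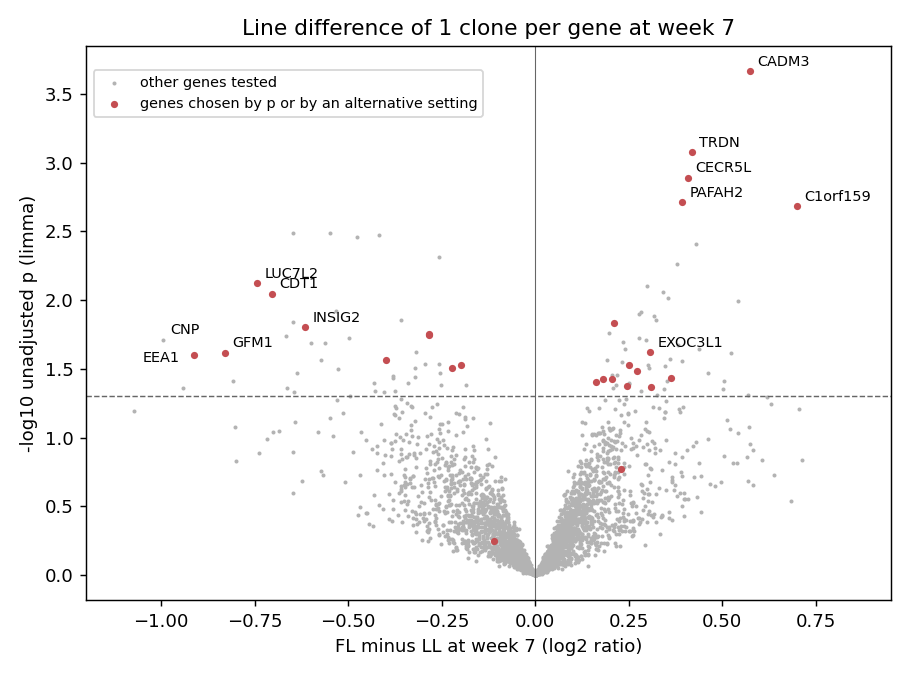
FL minus LL difference at week 7 (log2 ratio, x axis) against -log10 of the unadjusted limma p (y axis) for 3583 genes, 1 clone each; the dashed line marks the unadjusted threshold of 0.05. No gene passes after adjustment, and the gene with the smallest p is CADM3 at 0.57.

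Among single genes, the smallest p belonged to CADM3, a cell adhesion molecule of the nectin-like family that sits on axons and at contacts between neurons. Its log2 ratio was 0.43, 0.54, -0.07 and 0.44 in the FL arrays, against -0.49, 0.03, -0.34 and -0.16 in the LL arrays. FL arrays 1, 2 and 4 lay above every LL array, and FL array 3 lay among the LL arrays. The difference was 0.57 ± 0.13 (SE, adjusted p = 0.9997, limma), and 0.71 without FL array 3 (adjusted p = 0.0736, limma). These fits take the spread from the arrays of all ages. With the week 7 arrays alone and without FL array 3, the smallest adjusted p of any clone was 0.9996 (limma). This CADM3 clone was above background on only 1 FL array and 1 LL array. Another CADM3 clone, above background on 2 FL and 2 LL arrays, differed by -0.12 ± 0.31 (SE). At weeks 1, 3 and 5 the CADM3 difference was -0.22, -0.01 and -0.25.

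The next genes by p were also dim. C1orf159 had 0.69, 0.57, 0.22 and 0.26 in the FL arrays, against -0.07, -0.62, -0.28 and -0.09 in the LL arrays. Every FL array lay above every LL array, and the difference was 0.70 ± 0.21 (SE). PAFAH2, an enzyme that hydrolyses oxidised phospholipids, had -0.10, -0.00, 0.06 and -0.04 in FL, against -0.42, -0.40, -0.53 and -0.30 in LL. The lines did not overlap here either, and the difference was 0.39 ± 0.11 (SE), 0.37 without FL array 3. TRDN, triadin of the calcium release complex of muscle, was also separated, at 0.42 ± 0.11 (SE), but it was above background on 0 FL arrays and 1 LL array. CECR5L differed by 0.41 ± 0.11 (SE) with overlapping arrays. CECR5L was above background on 2 FL arrays and 1 LL array, PAFAH2 on 1 FL and 2 LL arrays, and C1orf159 on 2 of each. None passed adjustment (adjusted p = 0.9997 each, limma).

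Bright genes that leaned higher in FL did so by little. The 10 with the smallest p among those above background on at least 3 arrays of each line, and with every FL array above the LL mean, differed by 0.16 to 0.36. EXOC3L1, related to a subunit of the exocyst that tethers secretory vesicles, had 0.25, 0.58, 0.34 and 0.04 in FL, against 0.23, -0.09, -0.06 and -0.10 in LL. FL arrays 1, 2 and 3 lay above every LL array, and FL array 4 below LL array 1. The difference was 0.31 ± 0.13 (SE), while another clone of EXOC3L1 differed by -0.04. FBN1, the fibrillin of extracellular microfibrils, had 0.29, 0.16, 0.44 and 0.03 in FL, against 0.24, -0.18, -0.05 and -0.19 in LL. Its values were highest on FL array 3, and its difference was 0.27 ± 0.12 (SE), or 0.20 without that array, while another FBN1 clone differed by 0.01. SLC1A4, a neutral amino acid transporter that carries serine in brain, differed by 0.36, and YIPF1, a Golgi membrane protein, by 0.31. In both, LL array 3 was far below the rest, at -1.23 for SLC1A4 and -1.02 for YIPF1, and the other arrays of the lines overlapped. Without LL array 3 the differences were 0.09 for SLC1A4 and 0.08 for YIPF1. LRRC59, which anchors ribosomes at the endoplasmic reticulum, differed by 0.24, and COPS7A, a subunit of the COP9 signalosome, by 0.25. The tubulin-folding cofactor TBCA and BLOC1S4, a subunit of a complex that builds lysosome-related organelles, both differed by 0.21. LOC769755 differed by 0.18 and the membrane protein TMEM171 by 0.16. FL array 3 was the highest FL array in 8 of these 10 genes. Among genes higher in FL at an unadjusted p under 0.05, the same count was 32 of 48 (66.7%). Over all genes with 4 FL values it was the highest in 39.9%. Choosing genes by direction favours an outlying array at that end, so these counts are a description.

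Bright genes that leaned lower in FL differed by more, by 0.20 to 0.91, and FL array 3 was the lowest FL array in 9 of 10. Among genes lower in FL at an unadjusted p under 0.05, the same count was 34 of 42 (81%). Over all genes with 4 FL values it was the lowest in 32.4%. The choice by direction favours this here too. INSIG2, an endoplasmic reticulum protein that holds back the SREBP factors of cholesterol synthesis, had 0.15, 0.37, -0.58 and 0.19 in FL, against 0.95, 0.50, 0.53 and 0.61 in LL. Every FL array lay below every LL array, with FL array 3 far below the other FL arrays, and the difference was -0.61 ± 0.24 (SE), or -0.41 without that array. LUC7L2, a splicing factor of the U1 particle, had 0.21, -0.13, -1.22 and 0.20 in FL, against 0.55, 0.61, 0.09 and 0.78 in LL. CDT1, which licenses origins of DNA replication, had 0.26, -0.30, -1.21 and 0.27 in FL, against 0.41, 0.53, 0.18 and 0.71 in LL. In both genes FL arrays 1 and 4 overlapped the lowest LL array and FL array 3 was lowest by far. Their differences were -0.74 ± 0.26 and -0.70 ± 0.25 (SE), and -0.42 and -0.38 without FL array 3.

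GFM1, the mitochondrial elongation factor G, had 0.22, 0.11, -0.60 and 0.17 in FL, against 0.30, 0.84, 1.76 and 0.32 in LL. The lines did not overlap, and FL array 3 and LL array 3 lay at the far ends, with a difference of -0.83 ± 0.35 (SE). EEA1, a tether of early endosomes, had -0.21, -0.04, -0.22 and -0.12 in FL, against -0.10, 0.26, -0.17 and 3.07 in LL. Its difference of -0.91 ± 0.39 (SE) came with LL array 4 alone far above the other arrays, and EEA1 gave -0.14 without it. The COPII coat protein SEC31A differed by -0.28 and ASS1, the argininosuccinate synthase of arginine recycling, by -0.40. Without FL array 3 these were -0.13 and -0.23. FBXO34, an F-box protein, differed by -0.28, the histone acetyltransferase scaffold BRPF3 by -0.22, and MIGA2, which promotes mitochondrial fusion, by -0.20. Of the 20 bright genes, 4 were under an unadjusted p of 0.05 without FL array 3 (FBXO34, MIGA2, EEA1 and EXOC3L1). Over all genes that was 47 of 3567 (1.32%). The 20 were chosen for a small p with these same arrays, so the 4 cannot be read against that share. All 20 kept their sign, but they were chosen with every FL array on the same side of the LL mean. Leaving out an FL array could therefore not turn them.

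**Figure D3:**
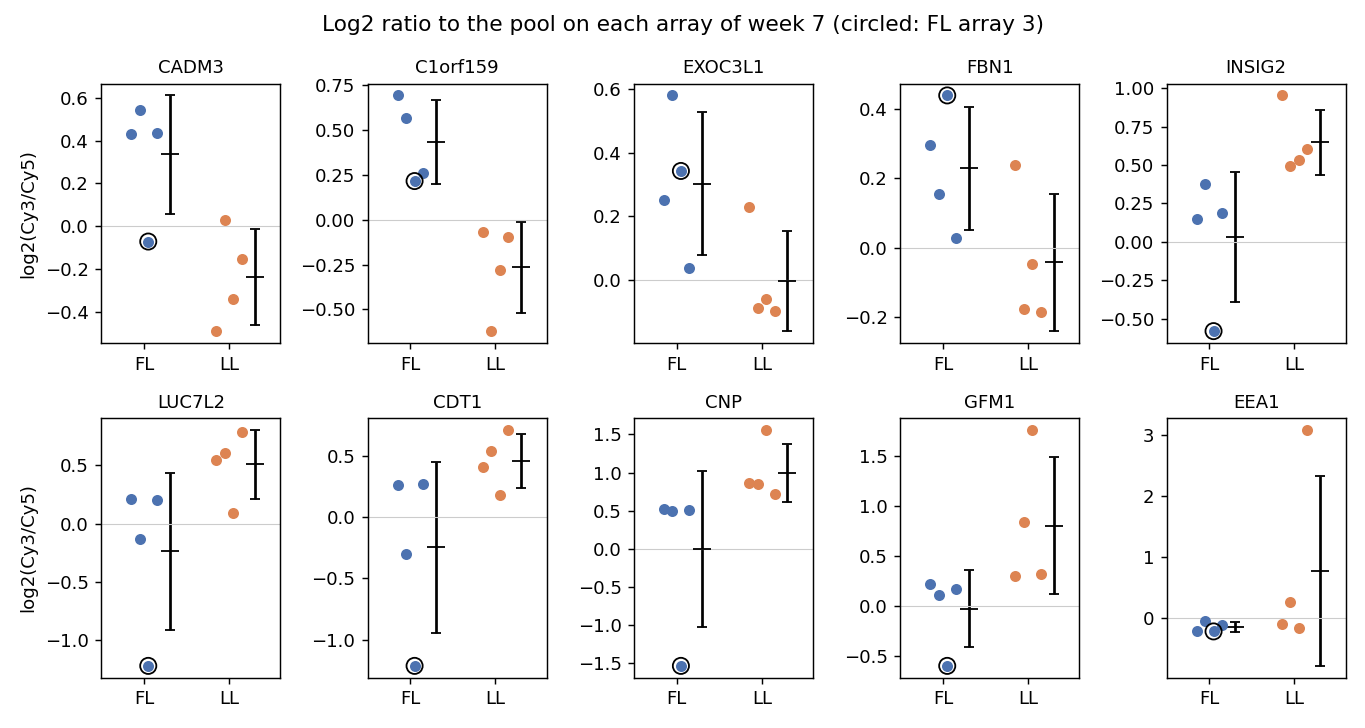
Log2 ratio to the pool (y axis) on each week 7 array, FL left of LL, for 10 genes; points are arrays, the horizontal mark with bars is the mean and SD of 4 arrays, and FL array 3 is circled. FL array 3 is far below the other FL arrays for INSIG2, LUC7L2, CDT1, CNP and GFM1, and LL array 4 holds the value of 3.07 for EEA1.

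In 79 of the 99 named genes, leaving out 1 of the 8 arrays turned the difference or made it smaller by over 1.5 times. These genes were chosen by p or as list ends, so this share does not stand for all genes. Calls appeared only under some other settings of the fit. With array weights, which give noisy arrays less say (FL array 3 had a weight of 0.255 and LL array 4 the highest, 3.91), 3 clones passed (0.04%). They were CADM3 at 0.63 (adjusted p = 0.0204, limma), EEA1 at -2.24 (adjusted p = 0.0224, limma) and a clone of ENG at -0.60 (adjusted p = 0.0204, limma). With array weights in the week 7 arrays alone none passed, and the smallest adjusted p was 0.742 (limma). ENG, endoglin, is a TGF-beta co-receptor of blood vessels. That clone had -0.10, -0.19, -0.23 and -0.07 in FL, against 0.12, 0.14, -0.08 and 0.66 in LL, so that LL array 4 was again the highest. Its brightest clone, which stands for ENG elsewhere, differed the other way, by 0.23 ± 0.16 (SE). Without FL array 3 and LL array 2, CADM3 passed alone at 0.80 (adjusted p = 0.0195, limma). With no filter on brightness, a dim clone of ERBB2, a receptor of the EGF receptor family, passed at -6.36 (adjusted p = 0.0415, limma). It was above background on 0 FL arrays and 1 LL array, with 2 values in each line, and the brightest ERBB2 clone differed by -0.11. In the other settings that were run, 0 clones passed by limma.

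Few feeding peptide genes could be tested, and none of those was under an unadjusted p of 0.05, which leaves the others unknown. The list counts below stand beside 1831 positive and 1752 negative of 3583 genes in all, with 2.79% under an unadjusted p of 0.05. Of 23 genes of appetite-stimulating peptides and receptors, 3 were on the arrays and 1 was tested. This was PNOC, the nociceptin precursor, at -0.08 ± 0.11 (SE), with no value on FL array 3. Of the 33 genes of the appetite-suppressing list, 6 were tested and none was under an unadjusted p of 0.05, beside 2.79% of all genes. They ran from TAC1, the substance P precursor, at -0.04 ± 0.09 to NUCB2, the nesfatin precursor, at 0.09 ± 0.24 (SE). POMC, which is also in the anterior pituitary list, gave -0.02. Other neurohormones ran from the granin SCG2 at -0.29 ± 0.49 to the somatostatin receptor SSTR2 at 0.13 ± 0.13 (SE). Enzymes that cut and trim peptide hormones had 5 of 6 negative differences. The largest was that of the prohormone convertase PCSK2, at -0.42 ± 0.30 (SE), which was -0.02 without FL array 3, when 2 of the 6 were negative. At the other end, the peptidase PRCP, which inactivates alpha-MSH, gave 0.10 ± 0.10 (SE).

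In fatty acid, triglyceride and ketone metabolism, 10 of 16 differences were positive, with a median of 0.04 beside 0.00 over all genes. They ran from the fatty acid elongase ELOVL5 at -0.28 ± 0.30 to the desaturase FADS1 at 0.24 ± 0.17 (SE). In cholesterol synthesis and transport, 12 of 19 were positive, beside 1831 of 3583 genes in all. The 2 of 19 genes under an unadjusted p of 0.05, beside 2.79% of all genes, were lower in FL. These were INSIG2, described above, and the lipid-binding plasma protein APOH, at -0.25 ± 0.12 (SE). Neither was under 0.05 without FL array 3. The SREBP-2 gene SREBF2, the activator that INSIG proteins restrain, was the most positive at 0.28 ± 0.16 (SE). Its difference was 0.41 without FL array 3, when its unadjusted p was 0.0187 (limma), while another SREBF2 clone differed by -0.00. Endocannabinoid and lipid signalling genes had 8 of 9 negative differences, beside 1752 of 3583 genes in all. Their median was -0.16, or -0.06 without FL array 3. ABHD12, a lipase that can split the endocannabinoid 2-AG, was lowest at -0.34 ± 0.17 with no value on FL array 3, and the fatty acid carrier FABP5 was highest at 0.00 ± 0.08 (SE). ABHD12 was above background on 1 FL array and 3 LL arrays, and its other clone differed by 0.04.

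Genes of insulin and energy sensing ran from the PI3-kinase subunit PIK3R1 at -0.38 ± 0.23 to the mTOR inhibitor TSC1 at 0.29 ± 0.57 (SE). PIK3R1 was above background on 0 FL arrays and 1 LL array. With FL values under the lowest level above background raised to that level, its mean Cy3 level was 1.17-fold lower in FL. LL array 2 was high, at 1.08, and without it the PIK3R1 difference was -0.08. None of 11 was under an unadjusted p of 0.05. Among 7 genes of thyroid and steroid hormone action, the thyroid hormone binding protein CRYM of tanycytes gave -0.32 ± 0.21 and the carrier TTR of the choroid plexus 0.39 ± 0.33 (SE). CRYM had 0.31, -0.13, -0.14 and 0.40 in FL, against 0.07, 1.43, 0.09 and 0.13 in LL. LL array 2 alone was high, and without it the CRYM difference was 0.01. TTR had -0.44, -0.54, -0.14 and -1.02 in FL, against -0.49, -0.54, -1.95 and -0.71 in LL, so that LL array 3 alone was far below the rest.

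Neurotransmission genes were represented by few clones. Only GRIA2 and GRIN1, subunits of the AMPA and NMDA glutamate receptors, were tested for glutamate and GABA, at -0.03 ± 0.27 and -0.04 ± 0.33 (SE). GRIN1 gave 0.48 without FL array 3 and -0.46 without FL array 1. Among 8 monoamine and acetylcholine genes, AANAT and ASMT, successive enzymes of melatonin synthesis in the pineal gland, lay at opposite ends, at -0.39 ± 0.23 and 0.27 ± 0.26 (SE). Both are also in the list of pineal gland and retina genes, where 4 of 7 differences were positive. Synaptic vesicle genes split 10 positive to 13 negative of 23, or 15 to 8 without FL array 3. Of the 23, 1 was under an unadjusted p of 0.05, beside 2.79% of all genes. This was DNM1, the dynamin that pinches vesicles off, at -0.30 ± 0.13, or -0.37 without FL array 3. Other DNM1 clones gave 0.11 and -0.42. The clathrin adaptor AP2A2 was lowest at -0.35 ± 0.36 and the clathrin heavy chain CLTC highest at 0.57 ± 0.44 (SE). CLTC was above background on 1 FL array and 0 LL arrays, with a mean log2 Cy3 level of 11.65 in FL and 10.44 in LL. With LL values under the lowest level above background raised to that level, CLTC was 2.19-fold higher in FL. Such folds average all arrays of the brighter line, including those not above background, and carry no error, so they are not lower limits. They are on the Cy3 signal alone after normalization, not on the ratio to the pool, and are open to dye bias.

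Subunits of the vacuolar proton pump, which acidifies synaptic vesicles and lysosomes, had 9 of 12 negative differences, with a median of -0.11. Over all genes, 1752 of 3583 were negative. Of the 12, 2 were under an unadjusted p of 0.05, beside 2.79% of all genes, and neither was without FL array 3. They were ATP6V1D at -0.43 ± 0.20 and ATP6V0D1 at -0.32 ± 0.15 (SE). ATP6V0D1 had 0.41, 0.37, -0.65 and 0.28 in FL, against 0.32, 0.48, 0.36 and 0.54 in LL. FL array 3 alone was far from the rest, and without it the difference was -0.07. Without it ATP6V1D gave -0.20, and the pump genes' median was -0.03. ATP6V1D was above background on 0 FL arrays and 2 LL arrays, and its other clone differed by 0.20. Its mean Cy3 level, with dim FL values raised in the same way, was 1.58-fold lower in FL. The most positive subunit was ATP6V0E2 at 0.06 ± 0.12 (SE). Among voltage-gated channels, 1 of 8 was under an unadjusted p of 0.05, beside 2.79% of all genes. It was the potassium channel subunit KCNAB2 at 0.25 ± 0.12 (SE), above background on 0 FL arrays and 1 LL array. The sodium channel subunits SCN2B and SCN4B ran from -0.21 ± 0.26 to 0.51 ± 0.33 (SE).

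Neural adhesion genes had CADM3 as their most positive member and the neuronal surface protein THY1 as their most negative, at -0.14 ± 0.12 (SE). Genes of immature neurons and neurite outgrowth had 10 of 17 negative differences and a median of -0.07, which was -0.00 without FL array 3. DPYSL2, a collapsin response mediator that guides axon growth, gave -0.40 ± 0.24, or -0.09 without that array, and its other clone gave -0.33. MARCKS, which links membrane to actin, gave 0.28 ± 0.34, or 0.58 without it (SE), with 2.19 on FL array 4 and 1.03 on LL array 3. Neuron markers were negative in 7 of 11, with a median of -0.07, or 0.00 without FL array 3. The calcium sensor VSNL1 had 0.39, 0.52, -1.12 and 0.48 in FL, against -0.18, 0.78, 0.48 and 0.38 in LL. FL array 3 was far below every other array, and the VSNL1 difference of -0.30 ± 0.28 (SE) was 0.10 without it. The vesicle fusion protein SNAP25 was the most positive at 0.20 ± 0.18 (SE).

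Among oligodendrocyte genes, 7 of 10 differences were negative, with a median of -0.15, or -0.05 without FL array 3. CNP, an enzyme of myelin sheaths, had 0.52, 0.50, -1.54 and 0.51 in FL, against 0.86, 0.85, 1.56 and 0.71 in LL. Every FL array lay below every LL array, and FL array 3 lay far below the other FL arrays. The CNP difference was -0.996 ± 0.40 (SE), and -0.48 without that array, when its unadjusted p was 0.182 (limma). CNP was above background on 2 FL and 4 LL arrays. Transferrin, TF, which oligodendrocytes secrete, was the most positive at 0.35 ± 0.17 (SE), and its other clone differed by 0.04. Astrocyte and tanycyte genes had a median of -0.05, which was 0.13 without FL array 3. Their most positive member was the astrocyte calcium-binding protein S100B at 0.35 ± 0.29 (SE).

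Among markers of other cell types, none of the 7 microglia and macrophage genes, 10 endothelial and pericyte genes, 7 choroid plexus and ependyma genes or 4 red blood cell genes was under an unadjusted p of 0.05. Microglia ran from the MHC class II chaperone CD74 at -0.15 ± 0.29 to the lysosomal protein LAPTM5 at 0.12 ± 0.14 (SE). Endothelium ran from the junction protein ESAM at -0.14 ± 0.15 to ENG, and choroid plexus from ENPP2, autotaxin, at -0.21 ± 0.29 to TTR. The globins HBA1 and HBBA gave -0.13 ± 0.15 and 0.21 ± 0.20 (SE). Of 11 anterior pituitary genes, the gonadotropin subunit FSHB was under an unadjusted p of 0.05, at 0.34 ± 0.16 (SE). It had 3 values in each line that did not overlap, which happens more easily than with 4 by construction. FSHB was not under 0.05 without FL array 3. The shared glycoprotein hormone subunit CGA was the most positive at 0.54 ± 0.31, and TBX19, a factor of the POMC cells, the most negative at -0.80 ± 0.54 (SE). Muscle and fat genes ran from the troponin TNNT3 at -0.08 ± 0.06 (SE) to TRDN. Summed marker levels overlapped between FL and LL in each of these lists. For red blood cells the sums were 48786 to 73710 in FL and 32334 to 52065 in LL.

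**Figure D4:**
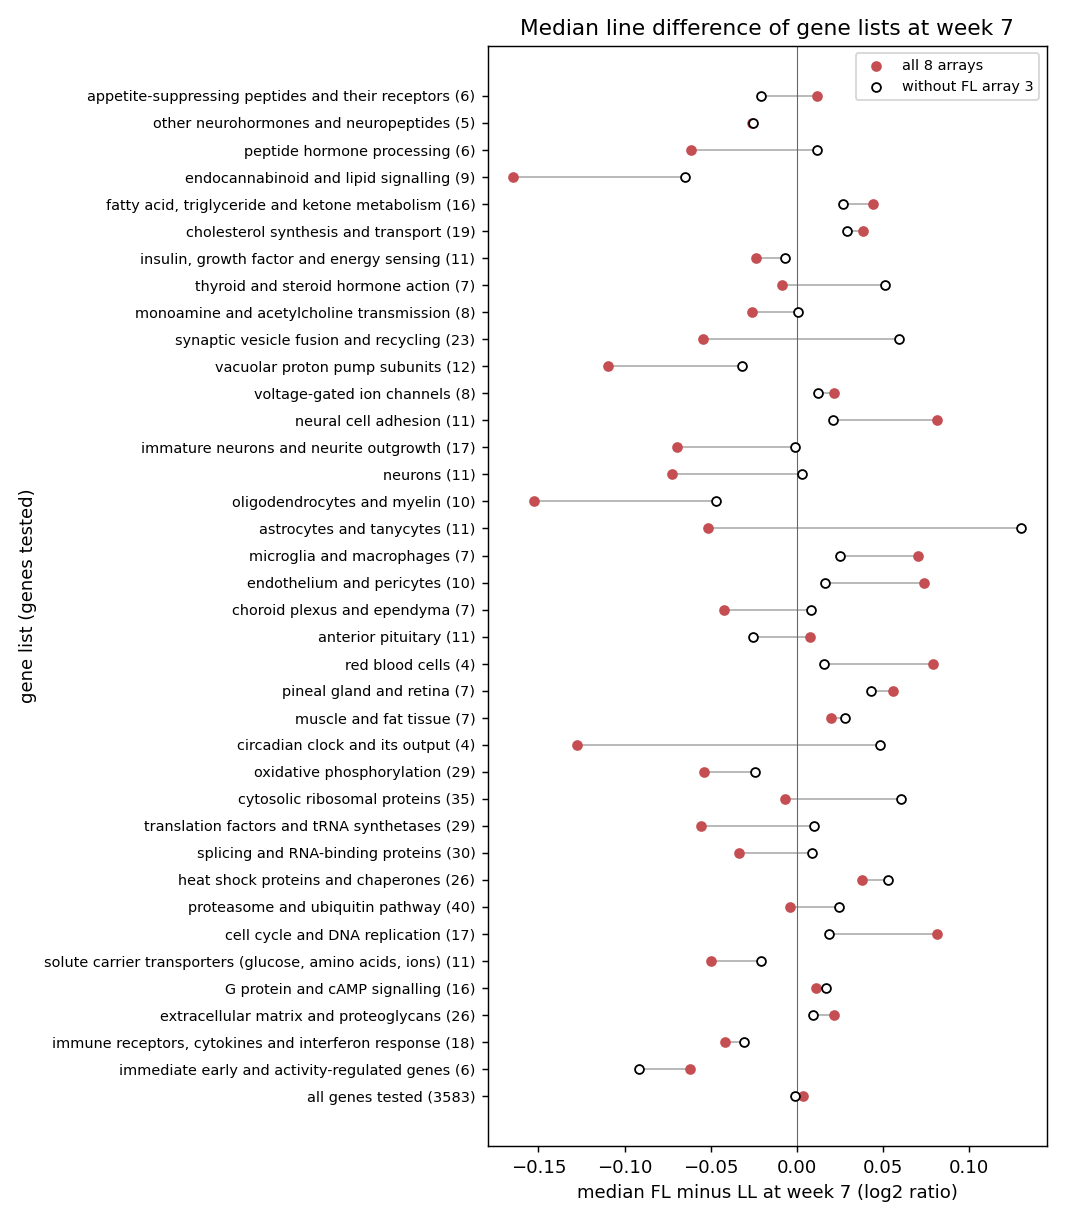
Median FL minus LL difference at week 7 (log2 ratio, x axis) of each gene list with at least 4 tested genes, with the number of genes in brackets; filled points use all 8 arrays and open points leave out FL array 3. Medians lie between -0.16 and 0.08 with all arrays, and the medians of 14 of the 37 lists change sign without FL array 3.

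Across the 39 lists, 18 of 511 tested genes were under an unadjusted p of 0.05 (3.52%, against 2.79% of all genes), 7 higher and 11 lower in FL, and without FL array 3 there were 6. Oxidative phosphorylation genes were negative in 24 of 29, beside 1752 of 3583 genes in all, with a median of -0.05 and no member under 0.05, and without FL array 3 in 19 of 28, with a median of -0.02. They ran from ATP5PB at -0.26 ± 0.30 to ATP5B at 0.22 ± 0.21 (SE), both subunits of ATP synthase, and another ATP5B clone gave -0.17. Ribosomal protein genes split 17 to 18, from RPL35A at -0.57 ± 0.41, above background on 0 FL and 2 LL arrays, to RPLP1 at 0.63 ± 0.31 (SE). Without FL array 3, 26 of 35 ribosomal protein genes were positive, beside 1759 of 3567 genes in all. Their median was then 0.06, with no member under 0.05. Among translation factors, the initiation factor subunit EIF3E was under 0.05 at -0.38 ± 0.17, above background on 0 FL and 2 LL arrays, and gave -0.16 without FL array 3. The glycyl-tRNA synthetase GARS was the most positive at 0.33 ± 0.49, or -0.03 without it. Splicing genes ran from LUC7L2 to the neuronal splicing factor NOVA1 at 0.23 ± 0.13 (SE).

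Of the chaperones, DNAJA1, a partner of HSP70, was under 0.05 at -0.55 ± 0.17 (SE). It had 0.01, 0.15, -0.61 and -0.37 in FL, against 0.14, 0.47, 0.29 and 0.48 in LL. FL arrays 1 to 4 lay below the LL mean and only FL array 2 overlapped an LL array. The DNAJA1 difference was -0.41 without FL array 3, and at week 1 it was -0.55. This DNAJA1 clone was not among the bright genes above, as it was above background on fewer than 3 arrays of FL or of LL. A second DNAJA1 clone, above background on 0 FL arrays and 3 LL arrays, differed by -0.76 ± 0.30 (SE). The most positive chaperone was HSPA4, an HSP70 relative, at 0.39 ± 0.29 (SE). In the proteasome and ubiquitin list, 20 differences were positive and 20 negative, and PSMA4 and PSMC3 were under 0.05. PSMA4, of the core particle, had 0.14, 0.06, 0.09 and -0.10 in FL, against -0.34, -0.16, -0.21 and -0.36 in LL. The lines did not overlap, and the difference was 0.32 ± 0.12 (SE), or 0.30 without FL array 3. PSMA4 was above background on 3 FL arrays but only 1 LL array. PSMC3, an ATPase of the regulatory particle, gave 0.50 ± 0.23 (SE), with LL array 3 at -1.65. Without that array PSMC3 gave 0.21, and in the authors' series table -0.080. The deubiquitinase USP14 was lowest at -0.33 ± 0.25 (SE).

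In cell cycle and DNA replication, CDT1 was under 0.05 and the helicase subunit MCM2 was the most positive at 0.25 ± 0.17 (SE). Among matrix genes, FBN1 stood at the top and TIMP2, an inhibitor of metalloproteinases, at the bottom with -0.60 ± 0.24 (SE). TIMP2 had 0.16, -0.19, -1.35 and 0.45 in FL, against 0.33, 0.50, 0.14 and 0.49 in LL. FL array 3 was again far below the rest, and the difference was -0.23 without it. Solute carriers ran from the mitochondrial ADP/ATP carrier SLC25A6 at -0.19 ± 0.25 to the sodium-calcium exchanger SLC8A1 at 0.14 ± 0.10 (SE). G protein and cAMP genes ran from GNAI3, an inhibitory G protein subunit, at -0.26 ± 0.17 to the stress-response factor ATF4 at 0.58 ± 0.45 (SE), while another ATF4 clone gave -0.17. Immune genes ran from the interferon regulatory factor IRF1 at -0.25 ± 0.14 to IL2RG, the shared receptor chain of interleukin-2 and its relatives, at 0.22 ± 0.29 (SE). Every FL array lay below every LL array for IRF1. Activity-regulated genes ran from JUN at -0.47 ± 0.27, or -0.16 without LL array 2, where it stood at 1.37, to the kinase SGK1 at 0.11 ± 0.18 (SE), and clock genes from CLOCK itself at -0.21 ± 0.28 to the clock kinase CSNK1D at 0.11 ± 0.15 (SE). Second clones of genes named above also differed in sign from the brightest one for THY1 (0.08), PNOC (0.01), CLOCK (0.01), ELOVL5 (0.04 for both), SLC25A6 (0.16, and -0.26 for another), SGK1 (-0.11, and 0.05 for another), CD74 (0.008, and -0.17 for another) and YIPF1 (-0.085, and 0.005 for another).

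FL array 3 was also read list by list. Among genes measured on all 4 FL arrays, array 3 was the lowest in 32.4% and the highest in 39.9% of all genes tested. It was the lowest in 6 of 8 astrocyte and tanycyte genes, 6 of 10 oligodendrocyte genes, 5 of 9 neuron markers, 12 of 22 synaptic vesicle genes and 8 of 12 proton pump genes. It was also the lowest in 6 of 8 endocannabinoid genes, 9 of 14 immune genes, 9 of 14 G protein and cAMP genes, 4 of 6 peptide processing genes and 15 of 26 oxidative phosphorylation genes. It was the highest in 13 of 26 chaperones, in 8 of 9 endothelial and pericyte genes, in 12 of 22 matrix genes and in 1 of 9 neuron markers. Set against the mean of the other 3 FL arrays, the median astrocyte gene lay at -0.31, the median oligodendrocyte gene at -0.34 and the median neuron marker at -0.20, while the median endothelial gene lay at 0.20. Over all genes tested that median was 0.04. Other arrays shifted too, each set against the rest of its line. FL array 4, whose comparison includes FL array 3, had 0.25 for astrocyte, 0.34 for oligodendrocyte, 0.09 for neuron and -0.02 for endothelial genes. In the same order, LL array 1 had -0.21, -0.11, -0.14 and 0.21. FL array 3 correlated at 0.39 on average with the FL arrays of week 1 (0.22 to 0.68) and at -0.06 with the LL arrays of week 1. The likeness was not only to FL arrays. LL array 1 of week 3, with the lowest array weight of the series (0.197), correlated with FL array 3 at 0.45. These list values were each read on 1 array, so they carry no test.

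Across ages, the line differences were less spread over clones at week 7 than at week 1. All week 1 values here include FL array 4 of week 1, which also stands apart. It is the array most like FL array 3 of week 7 (0.68). The differences had an SD over clones of 0.29 for week 1, 0.17 for week 3, and 0.18 for both later ages. For week 7 without FL array 3 it was 0.15. At week 1, 14 clones passed (0.187%) and 1344 were under an unadjusted p of 0.05 (17.9%), against 0 and 165 (2.2%) at week 3, and 0 and 205 (2.73%) at week 5. The 14 clones of week 1 differed by 0.68 to 1.22 in size there and by 0.05 to 0.44 at week 7. They were chosen for passing at week 1, which by itself favours smaller sizes at another age, so these sizes are a description. Of these 14, 13 had the same sign at week 7, which was 10 without FL array 3, when their median size was 0.08. The test of whether the line difference at week 7 differs from that at week 1 passed for 0 clones (0%, limma; 302 at an unadjusted p under 0.05, 4.02%). Leaving out FL array 3, it also passed for 0 clones, with 695 under 0.05. Without the 3 arrays that stand apart, FL array 4 of week 1 among them, it passed for 0 clones, with 730 under 0.05.

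Across the 7504 clones, the FL minus LL difference at week 7 correlated with that at week 1 at 0.41. The correlation was -0.01 without FL array 3. With week 3 it was -0.25 and with week 5 -0.18, or -0.00 and -0.10 without that array. The week 7 and week 1 differences share the clones and the Cy5 pool but no Cy3 sample. The likeness to week 1 rested on FL array 3. DPYSL2 showed it, with -1.22 at week 1 and -0.40 at week 7, or -0.09 without FL array 3, and CNP had -0.40 at week 1, 0.33 at week 3 and -0.11 at week 5.

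**Figure D5:**
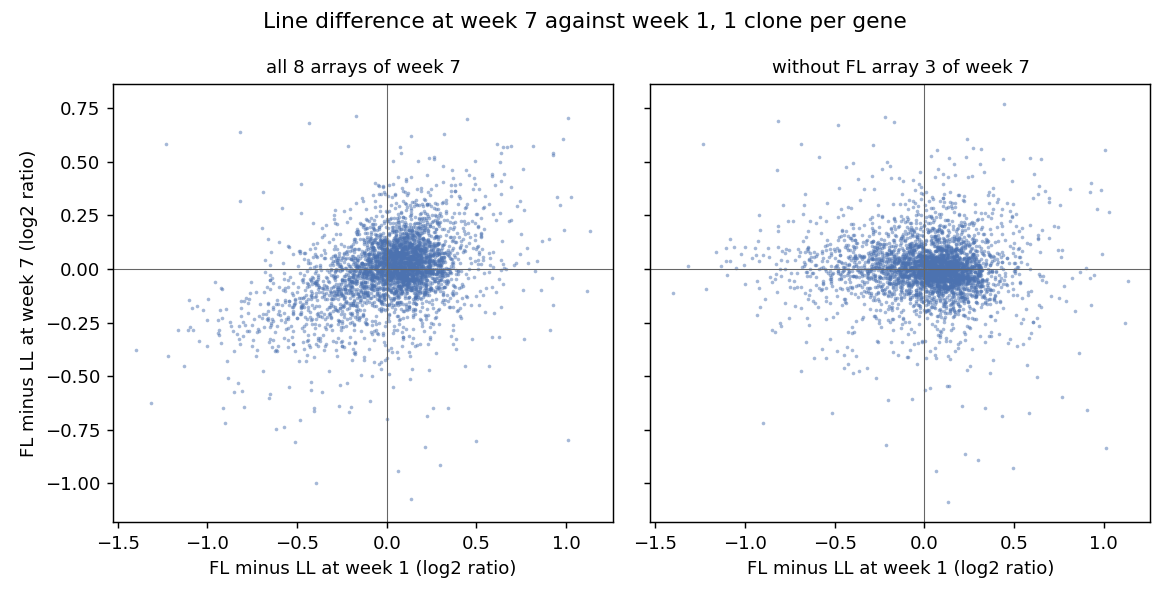
FL minus LL difference at week 7 (y axis) against that at week 1 (x axis), both log2 ratios, 1 point per gene, with all 8 arrays of week 7 (left) and without FL array 3 (right). The cloud slopes upward on the left and is flat on the right; across clones the correlations are 0.41 and -0.01.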

How the data were processed

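Each array file holds raw and local background intensities of Cy3 (sample) and Cy5 (pool), summed over the pixels of a spot, per the file headers. The authors also deposited log2 ratios of normalized Cy3 over raw Cy5, per the file headers; no label or header names their normalization method, and these ratios served as an alternative. Spots with the quality letters A, X, Y and Z, unsatisfactory per the file headers, were left out. Backgrounds were corrected with normexp (offset 50), and each array was normalized by global loess (span 0.3, 4 iterations, empty spots at weight 0) in limma 3.58.1 under R 4.3.3. Cy3 levels come after quantile normalization of average intensity. Clones were tested when above the 95th percentile of empty spots on at least 3 of 4 arrays of a group and with at least 2 values in each group. A limma model with 8 group means over 32 arrays gave each difference, adjusted by Benjamini-Hochberg at 0.05. Dyes were not swapped. Where replicates are not separate birds, p-values measure the spread between arrays.

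Spot names are those of the array files, and the authors' series table names its spots differently. Its values matched the array means in 64503 of 64503 comparisons by place but in 1775 of 30053 by name, so it was read by place. Ribosomal protein spots had a median log2 raw Cy3 of 12.99 under the array-file names and 11.32 under the table's names. Over all named spots it was 11.41. The brightest clone stands for a gene. Named are genes passing in any setting, the 10 with the smallest p each way among bright genes, the ends of each list with its members under 0.05, and the 5 smallest p. The members and lists were chosen with earlier results of these data known. The fit was tested on simulated data with independent noise, of the same spread for a clone on every array. It held no outlying array, so it does not cover an array such as FL array 3. Alternatives covered background, normalization, filters, quality letters, array weights, the replicate block and arrays left out. The 3 arrays that stand apart were FL array 3 of week 7, FL array 4 of week 1 and LL array 1 of week 3. FL array 3's file spells its header differently from the others.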

Additional observations from a re-analysis of the deposited data

Results flagged for a closer look

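In the following results 1 of the 4 arrays of a line lay far from the other 3. The log2 ratio is given, and with normally spread values chance alone singles out about 1 in 20 such groups. Over all clones with 4 values in the line, the same rule singled out FL array 3 in 417 of 6836 (6.1%). It singled out each other FL array in 0.67% to 1.04% and each LL array in 0.42% to 2.86% of clones. The genes below are among the named genes, which were chosen by p or as list ends. FL array 3 had a mean correlation of 0.0052 with all other arrays of the series, against 0.385 to 0.404 for the other 3 FL arrays of week 7. On FL array 1, IRF1 had 0.10, against -0.11 to -0.083 on the other 3 FL arrays. On FL array 3, SEC31A had -0.36, against 0.22 to 0.28 on the other 3 FL arrays. CNP had -1.54 there, against 0.50 to 0.52 on the other 3 FL arrays. GFM1 had -0.60 there, against 0.11 to 0.22 on the other 3 FL arrays. ASS1 had -0.49 there, against 0.12 to 0.22 on the other 3 FL arrays. COPS7A had 0.20 there, against -0.094 to -0.060 on the other 3 FL arrays. EIF3E had -0.50 there, against 0.32 to 0.42 on the other 3 FL arrays. ATP6V0D1 had -0.65 there, against 0.28 to 0.41 on the other 3 FL arrays. VSNL1 had -1.12 there, against 0.39 to 0.52 on the other 3 FL arrays. On LL array 1, EXOC3L1 had 0.23, against -0.098 to -0.059 on the other 3 LL arrays. NUCB2 had 0.83 there, against -0.15 to -0.064 on the other 3 LL arrays. On LL array 2, COPS7A had -0.69, against -0.15 to -0.094 on the other 3 LL arrays. CRYM had 1.43 there, against 0.069 to 0.13 on the other 3 LL arrays. ENPP2 had 1.34 there, against -0.13 to 0.056 on the other 3 LL arrays. On LL array 3, CNP had 1.56, against 0.71 to 0.86 on the other 3 LL arrays. ABHD12 had 1.06 there, against 0.53 to 0.61 on the other 3 LL arrays. CGA had -1.76 there, against -0.71 to -0.51 on the other 3 LL arrays. TTR had -1.95 there, against -0.71 to -0.49 on the other 3 LL arrays. On LL array 4, EEA1 had 3.07, against -0.17 to 0.26 on the other 3 LL arrays.

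Among list medians, that of voltage-gated ion channels was 0.12 on LL array 3, against -0.12 to -0.090 on the other LL arrays. That of anterior pituitary genes was -0.12 on LL array 1, against -0.011 to 0.010 on the other LL arrays.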

How the results depend on the processing

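No clone passed in the fit as reported, and the alternatives with calls were no brightness filter (1 clone), array weights (3) and leaving out FL array 3 and LL array 2 (1). That last setting also gave 1 clone whose week 7 difference differed from week 1. It, leaving out the letter S, and the week 7 brightness filter in week 7 arrays alone were chosen after seeing the data. Replicate numbers stand only in array-file names and same-numbered FL and LL arrays deviated together at r = 0.18, 0.05, -0.22 and 0.08, so the numbers were not taken as pairs. Signal over background nevertheless rose with the number in LL (3.28, 3.89, 4.47 and 6.29), while in FL array 3 broke the order. FL arrays 1 and 4 and LL arrays 1, 3 and 4 were most like the same-numbered FL array of week 5. FL arrays 2 and 3 and LL array 2 were most like an array with another number. What the numbers stand for was not tested. With the replicate block 0 clones passed and 255 had an unadjusted p under 0.05. The array signal limits precision, and clones dimmer than the filter were not tested. Where a value below moved or turned, the cause was not tested.

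Against 246 clones with an unadjusted p under 0.05 there were 129 in the authors' log2 ratios, 792 with no brightness filter, 34 with the stricter brightness filter, 111 with a brightness filter on the week 7 groups, 124 in a fit of the week 7 arrays alone, 108 in week 7 arrays alone without FL array 3, 527 with array weights, 462 with array weights in week 7 arrays alone, 127 without 3 arrays that stand apart, 138 without FL array 3 and LL array 2 and 55 in week 7 arrays alone with the week 7 brightness filter, and 109 to 380 when leaving out each array in turn. Lowest was without FL array 3 and highest without FL array 4. Against an SD of differences of 0.18 it was 0.14 with no background subtraction, 0.11 in the authors' log2 ratios, 0.29 with no brightness filter, 0.13 with the stricter brightness filter, 0.15 in week 7 arrays alone without FL array 3, 0.15 without 3 arrays that stand apart and 0.14 in the authors' series table, and 0.15 to 0.23 leaving out each array. Fewer arrays overlap less by construction, so counts of clones whose lines did not overlap cannot be compared where arrays were left out. Against 82 with all 8 arrays there were 16 in the authors' log2 ratios, 170 with no brightness filter, 18 with the stricter brightness filter, 47 with a brightness filter on the week 7 groups, 141 in week 7 arrays alone without FL array 3, 141 without 3 arrays that stand apart, 350 without FL array 3 and LL array 2 and 47 in week 7 arrays alone with the week 7 brightness filter, and 139 to 349 leaving out each array.

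Without FL array 3 and LL array 2, list medians were -0.021 for endocannabinoid and lipid signalling, 0.0089 for cholesterol synthesis and transport, -0.017 for neural cell adhesion, 0.12 for astrocytes and tanycytes, 0.076 for muscle and fat tissue and 0.047 for clock genes. They were also 0.10 for cytosolic ribosomal proteins, 0.036 for translation factors and tRNA synthetases, -0.029 for cell cycle and DNA replication and 0.021 for solute carrier transporters. With the stricter brightness filter, list medians were -0.030 for fatty acid, triglyceride and ketone metabolism, 0.066 for cholesterol synthesis and transport, 0.19 for thyroid and steroid hormone action, -0.082 for neural cell adhesion, -0.21 for astrocytes and tanycytes and 0.098 for choroid plexus and ependyma. They were also -0.026 for muscle and fat tissue, 0.0080 for translation factors and tRNA synthetases, -0.052 for cell cycle and DNA replication and 0.088 for extracellular matrix and proteoglycans. With no background subtraction, list medians were 0.0085 for cholesterol synthesis and transport and 0.029 for neural cell adhesion. With median centring, list medians were 0.011 for cholesterol synthesis and transport and -0.031 for extracellular matrix and proteoglycans. With print-tip loess, list medians were 0.013 for cholesterol synthesis and transport, 0.056 for choroid plexus and ependyma and -0.0031 for translation factors and tRNA synthetases. With array weights, list medians were 0.010 for cholesterol synthesis and transport, -0.0061 for oligodendrocytes and myelin, 0.078 for cytosolic ribosomal proteins, 0.023 for splicing and RNA-binding proteins and 0.0021 for cell cycle and DNA replication. With array weights in week 7 arrays alone, list medians were 0.0089 for cholesterol synthesis and transport, -0.0028 for oligodendrocytes and myelin, 0.079 for cytosolic ribosomal proteins, 0.023 for splicing and RNA-binding proteins and -0.0012 for cell cycle and DNA replication. With a brightness filter on the week 7 groups, list medians were -0.11 for voltage-gated ion channels, 0.027 for translation factors and tRNA synthetases and -0.011 for cell cycle and DNA replication. In week 7 arrays alone with the week 7 brightness filter, list medians were -0.11 for voltage-gated ion channels, 0.027 for translation factors and tRNA synthetases and -0.011 for cell cycle and DNA replication. In the authors' log2 ratios, list medians were 0.028 for neural cell adhesion, 0.011 for oligodendrocytes and myelin and -0.033 for muscle and fat tissue. In week 7 arrays alone without FL array 3, list medians were 0.021 for neural cell adhesion, 0.13 for astrocytes and tanycytes, 0.048 for clock genes and 0.0097 for translation factors and tRNA synthetases. Without 3 arrays that stand apart, list medians were 0.021 for neural cell adhesion, 0.13 for astrocytes and tanycytes, 0.048 for clock genes and 0.0097 for translation factors and tRNA synthetases. Leaving out each array gave medians of 0.0092 to 0.052 for cholesterol synthesis and transport, -0.026 to 0.079 for thyroid and steroid hormone action, 0.021 to 0.13 for neural cell adhesion, -0.12 to 0.13 for astrocytes and tanycytes and -0.033 to 0.079 for muscle and fat tissue. It gave medians of -0.23 to 0.048 for clock genes, -0.078 to 0.061 for cytosolic ribosomal proteins, -0.055 to 0.0097 for translation factors and tRNA synthetases and -0.057 to 0.044 for extracellular matrix and proteoglycans. Of 39 list medians, 22 never moved by more than the spread between replicates.

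Of 99 named genes, 67 kept their sign in each setting. The authors' series table holds the means of the authors' log2 ratios, so these settings are not separate data. The fit of those ratios asked for at least 2 values in each line. In the authors' series table, the sign turned for CNP at 0.063, PSMC3 at -0.080, CRYM at 0.18, PCSK2 at 0.075, RPL35A at 0.18, SNAP25 at -0.054 and HBBA at -0.029. IL2RG turned too, at -0.041, as did PNOC at 0.0017, ENPP2 at 0.041, SGK1 at -0.062, CD74 at 0.15, GRIA2 at 0.026 and GRIN1 at 0.048. FABP5 turned too, at -0.0055. In the authors' log2 ratios, the sign turned for MIGA2 at 0.021, CRYM at 0.18, RPL35A at 0.18, SNAP25 at -0.054, HBBA at -0.029, IL2RG at -0.041 and PNOC at 0.0017. ENPP2 turned too, at 0.041, as did SGK1 at -0.062, CD74 at 0.15, GRIA2 at 0.026, GRIN1 at 0.048 and FABP5 at -0.0055. Without FL array 3 and LL array 2, the sign turned for CRYM at 0.097, MCM2 at -0.087, RPL35A at 0.59, USP14 at 0.18, VSNL1 at 0.24, SCN2B at 0.064 and SLC25A6 at 0.20. CLOCK turned too, at 0.10, as did ENPP2 at 0.20, GARS at -0.028, SGK1 at -0.030, ERBB2 at 0.11, CD74 at 0.031 and ATP6V0E2 at -0.094. TAC1 turned too, at 0.0048, as did NUCB2 at -0.17 and GRIN1 at 0.42. With array weights in week 7 arrays alone, the sign turned for MCM2 at -0.00061, RPL35A at 0.17, VSNL1 at 0.0052, ELOVL5 at 0.058, IL2RG at -0.062, SLC25A6 at 0.12 and CLOCK at 0.0052. ENPP2 turned too, at 0.0075, as did GARS at -0.72, ERBB2 at 0.10, TSC1 at -0.29, CD74 at 0.17, GRIN1 at 0.24 and FABP5 at -0.14. With array weights, the sign turned for RPL35A at 0.16, VSNL1 at 0.0081, ELOVL5 at 0.032, IL2RG at -0.055, SLC25A6 at 0.12, CLOCK at 0.0069 and ENPP2 at 0.0070. GARS turned too, at -0.68, as did ERBB2 at 0.10, TSC1 at -0.27, CD74 at 0.16, GRIN1 at 0.23 and FABP5 at -0.14. In week 7 arrays alone without FL array 3, the sign turned for VSNL1 at 0.097, SCN2B at 0.018, SLC25A6 at 0.13, CLOCK at 0.012, GARS at -0.028, SGK1 at -0.0082 and ERBB2 at 0.034. ATP6V0E2 turned too, at -0.016, as did NUCB2 at -0.092 and GRIN1 at 0.48. Without 3 arrays that stand apart, the sign turned for VSNL1 at 0.097, SCN2B at 0.018, SLC25A6 at 0.13, CLOCK at 0.012, GARS at -0.028, SGK1 at -0.0082 and ERBB2 at 0.034. ATP6V0E2 turned too, at -0.016, as did NUCB2 at -0.092 and GRIN1 at 0.48. With no background subtraction, the sign turned for ELOVL5 at 0.095, CD74 at 0.12 and GRIN1 at 0.016. With every quality letter kept, the sign turned for SCN2B at 0.056. With the replicate block, the sign turned for TSC1 at -0.16. With print-tip loess, the sign turned for GRIN1 at 0.0055 and FABP5 at -0.016. With scaling between arrays, the sign turned for GRIN1 at 0.063. With median centring, the sign turned for FABP5 at -0.0042. Leaving out each array gave -0.44 to 0.014 for CRYM, -1.04 to 0.30 for RPL35A, -0.53 to 0.027 for USP14, -0.036 to 0.36 for SNAP25, -0.48 to 0.097 for VSNL1 and -0.48 to 0.12 for ELOVL5. The range was -0.45 to 0.017 for ATP5PB, -0.38 to 0.018 for SCN2B, -0.27 to 0.58 for MARCKS, -0.35 to 0.13 for SLC25A6, -0.37 to 0.012 for CLOCK and -0.36 to 0.13 for ENPP2. Ranges were -0.42 to 0.87 for GARS, -0.062 to 0.29 for SGK1, -0.51 to 0.14 for SCG2, -0.19 to 0.034 for ERBB2, -0.11 to 0.91 for TSC1 and -0.33 to 0.074 for CD74. Further ranges were -0.023 to 0.13 for ATP6V0E2, -0.092 to 0.33 for NUCB2, -0.11 to 0.077 for GRIA2, -0.46 to 0.48 for GRIN1 and -0.053 to 0.087 for FABP5. Without FL array 3 the sign turned in 10 of 98 named genes. Over all genes, 2695 of 3567 fitted without that array kept their sign. The named genes were chosen by p or as list ends, so these counts cannot be compared.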
